A study of Mus musculus with 7 samples.

Results

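The genes described here mark leukocytes of the mouse: macrophages and related myeloid cells (25 genes), granulocytes (3 genes) and leukocytes in general (6 genes). They were chosen by name, as listed gene symbols in the deposited expression table, which gave 34 of 20719 named genes. Emr1 is the table's older symbol for Adgre1, and Spi1 was found under its older symbol Sfpi1 through its Entrez identifier. Each gene was represented by 1 transcript cluster, a group of probes that the array reports together.

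The values came from 7 Affymetrix mouse gene arrays of cells sorted from adrenals of male C57BL/6J mice aged 6 weeks. The SF1+ group (4 arrays) carried Sf1:eGFP, a genomic Nr5a1 fragment that drives GFP in steroidogenic cells. The Wnt+ group (3 arrays) carried TCF/Lef:H2B-GFP, a nuclear histone-GFP fusion placed behind TCF/Lef sites and a minimal Hspa1b promoter, which reports canonical Wnt signalling. Each array held amplified RNA of 1 sort of viable GFP-positive cells from 10 pooled adrenals, and no treatment was given. The labels give 5 ng of total RNA for each sample. They state 4 sorts per genotype, while the Wnt+ group had 3 arrays. The groups are different transgenic lines, so line and sorted population cannot be told apart. The comparison asks which genes differ between adrenal cells gated on the Wnt reporter and those gated on the SF1 reporter.

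Tissue macrophages depend on the CSF1 receptor for survival and on the transcription factor PU.1, the product of Spi1, for their identity. They bind antibody-coated particles through Fc receptors, coat debris with complement C1q, and digest what they take up in lysosomes. The adrenal holds resident macrophages in its cortex and medulla, close to its dense capillary bed. Granulocytes carry abundant S100A8 and S100A9, a calcium-binding protein pair. CD45, the product of Ptprc, is on the surface of nearly all leukocytes, so pan-leukocyte genes are read in lymphoid and dendritic cells as well as in macrophages.

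PU.1 binds purine-rich DNA, and its core was looked for in the promoters of the listed genes. Any link between this core and the array values described below was not tested. RefSeq promoter sequences (GRCm38.p6, 250 bases before to 50 after each start) were matched to 26 of the 34 genes. The letters GAGGAAG, on either strand, were present in 10 of these 26 genes (38.5%) and in 4152 of 27025 genes with a promoter in the same table (15.4%). These shares describe the windows and were not tested. The following stretches lie upstream of the start, read 5′ to 3′ along the gene, and are shown because each holds the core. Capitals mark the core, which is as written in Csf3r and appears as its reverse complement CTTCCTC in the others.
Fcgr1: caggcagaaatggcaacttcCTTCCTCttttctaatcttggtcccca
Fcgr3: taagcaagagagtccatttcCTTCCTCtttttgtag
C1qc: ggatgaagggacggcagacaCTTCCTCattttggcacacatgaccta
Trem2: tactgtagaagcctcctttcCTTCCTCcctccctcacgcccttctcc
Mrc1: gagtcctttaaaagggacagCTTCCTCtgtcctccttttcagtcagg
Csf3r: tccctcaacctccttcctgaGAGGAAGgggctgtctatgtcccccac
S100a8: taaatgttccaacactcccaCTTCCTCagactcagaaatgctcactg
Laptm5: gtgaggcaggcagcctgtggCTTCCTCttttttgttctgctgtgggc
On the minus strand are the stretches of Fcgr1 (chr3:96293999-96294045), Fcgr3 (chr1:171059395-171059430) and C1qc (chr4:136893082-136893128). On the plus strand are those of Trem2 (chr17:48346340-48346386), Mrc1 (chr2:14229358-14229404) and Csf3r (chr4:126024553-126024599). Those of S100a8 (chr3:90668880-90668926) and Laptm5 (chr4:130913257-130913303) are also on the plus strand. The matches closest to the start were those of Fcgr3, ending 10 bases before it (1 base before a second annotated start), and Mrc1, ending 30 bases before it. In Ctss and Cd53 the core ended after the start, either across it or wholly downstream of it, and is not shown. Mrc1 had a further match, farther upstream.

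The main pattern was a contrast between gene classes. All 6 pan-leukocyte genes had lower means in Wnt+ libraries, with a median difference of -1.36 on the log2 scale, while the median of the 25 macrophage genes was -0.26 and that of all 20719 genes was 0.02. When single arrays were left out, the pan-leukocyte median ran from -1.66 to -1.16 and the macrophage median from -0.52 to 0.05. Differences are Wnt+ minus SF1+ on the log2 scale throughout. They were below 0 for 31 of the 34 genes, where 45.2% of all genes were, but for 20 of the 34 (11 of 25 macrophage genes in place of 22) without SF1+ replicate 2. With limma, adjusted by Benjamini-Hochberg over all genes, 0 of the 34 genes passed an adjusted p of 0.05, where 0.256% of all genes did (0.203% lower in Wnt+). At an unadjusted p under 0.05, 6 of 6 pan-leukocyte genes and 2 of 25 macrophage genes were lower and none was higher, against 7.89% of all genes lower and 7.61% higher (15.5% in all). The macrophage count was 5 without SF1+ replicate 1 and 0 without Wnt+ replicate 2, where the pan-leukocyte counts were 6 and 5. Every Wnt+ array lay below every SF1+ array for 4 of the 6 pan-leukocyte genes and 1 of the 25 macrophage genes, and for 7.07% of all genes. None of the 34 had all Wnt+ arrays above (7.04% of all genes), so 5 of 34 were without overlap in either direction (14.1% of all genes). All Wnt+ arrays lay below for 10 of the 34 without SF1+ replicate 1, and for 10 without Wnt+ replicate 3. A difference of at least 1 toward lower values was seen in 7 of the 34 genes, against 2.95% of all genes, and in 3 without SF1+ replicate 2. The arrays hold RNA pools, in which fewer cells of a type and less RNA per cell cannot be told apart.

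**Figure D1:**
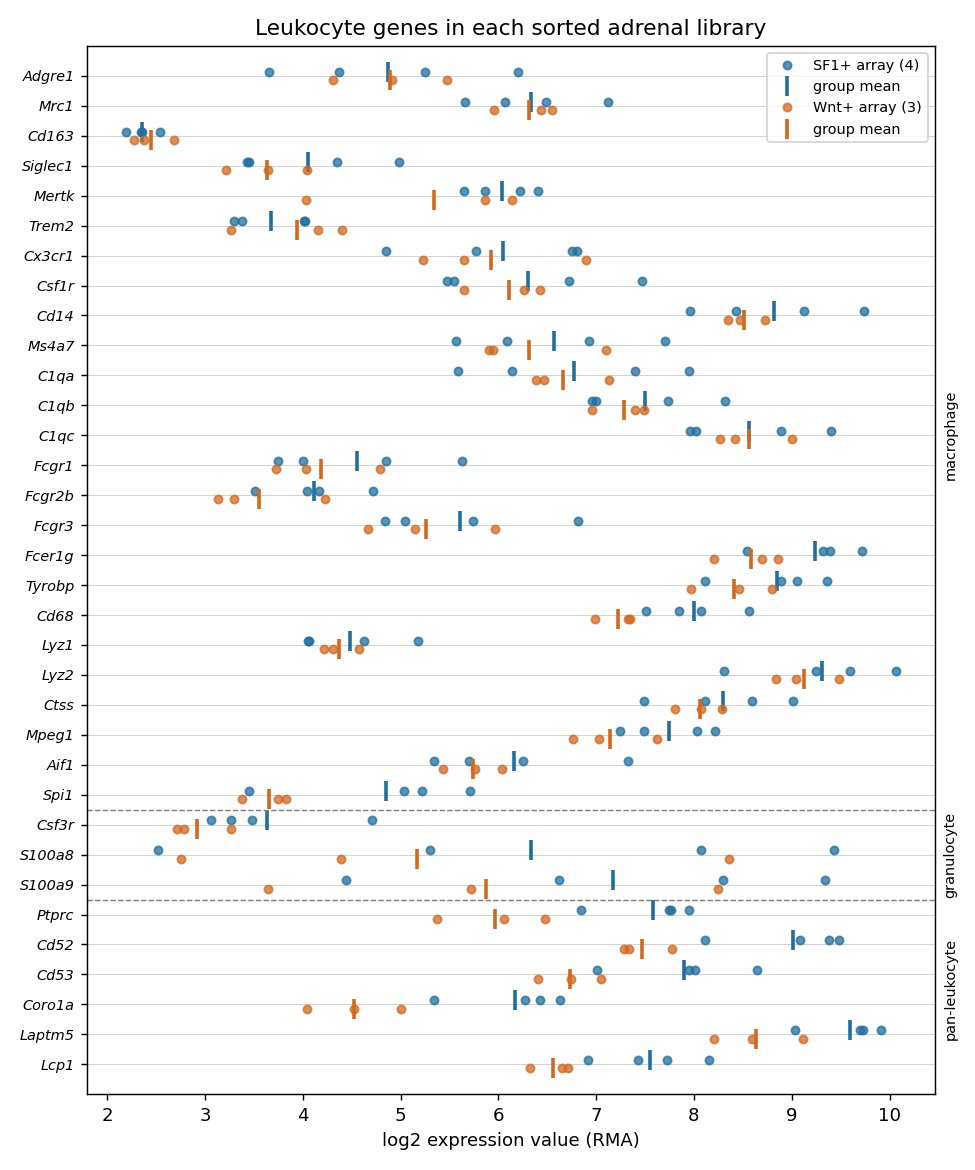
Log2 expression value (x axis) of each of the 34 genes (rows) in the 4 SF1+ arrays and the 3 Wnt+ arrays, where points are arrays and vertical bars are group means. The macrophage rows overlap between the groups except for Cd68, the pan-leukocyte rows are shifted to lower values in Wnt+, and S100a8 and S100a9 spread widely in both groups.

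Among pan-leukocyte genes, Ptprc, which encodes the CD45 phosphatase that sets the threshold of antigen receptor signalling, was at 6.85, 7.95, 7.74 and 7.77 in SF1+ replicates 1 to 4. It was at 6.06, 5.37 and 6.48 in Wnt+ replicates 1 to 3. All Wnt+ arrays were therefore below the lowest SF1+ array, and the means of 7.58 ± 0.49 (SD, n = 4) and 5.97 ± 0.56 (SD, n = 3) differed by -1.61 (SE 0.34), a 3.05-fold lower level. The limma adjusted p over all genes was 0.115, above the threshold.

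Coro1a, which encodes the actin-binding protein coronin 1A of leukocytes, had the largest difference of the 34 genes. Its values were 5.34, 6.63, 6.27 and 6.43 in SF1+ and 4.52, 4.04 and 5.00 in Wnt+. Again no arrays overlapped, and the difference was -1.65 (SE 0.35, limma adjusted p = 0.116), or 3.13-fold. Cd52, a small glycoprotein anchored in the lymphocyte and myeloid membrane, was at 8.11, 9.48, 9.38 and 9.08 in SF1+ and at 7.78, 7.28 and 7.34 in Wnt+. The groups did not overlap here either, with a difference of -1.54 (SE 0.34, limma adjusted p = 0.12).

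Lcp1, which encodes the actin-bundling protein L-plastin, was at 6.92 to 8.15 in SF1+ and at 6.32 to 6.71 in Wnt+, without overlap. Its means were 7.56 ± 0.52 (SD, n = 4) and 6.56 ± 0.21 (SD, n = 3), with a limma adjusted p of 0.17. The arrays of Cd53 and Laptm5 overlapped by a single SF1+ array, replicate 1. Cd53, a leukocyte tetraspanin, was at 7.01 in that array against 7.05 in Wnt+ replicate 3, and differed by -1.17 (SE 0.37, limma adjusted p = 0.204). Laptm5, a lysosomal membrane protein that lowers antigen receptor levels, was at 9.03 against 9.11 in the same arrays and differed by -0.96 (SE 0.28, limma adjusted p = 0.176). The 95% confidence intervals of all 6 pan-leukocyte differences lay below 0, between -2.48 and -0.30.

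The adjusted p-values depended on which genes were tested together. Among the 7665 genes with a mean log2 value of at least 4, Ptprc and Coro1a (limma adjusted p = 0.046 for each) and Cd52 (0.0478) passed and fell, where 2.77% of those genes passed and 1.98% passed and were lower. Over the alternatives tried, the adjusted p ranged from 0.046 to 0.343 for Ptprc, from 0.046 to 0.34 for Coro1a and from 0.0269 to 0.365 for Cd52. The value of 0.0269 was that without SF1+ replicate 1, the array with the lowest pan-leukocyte values of its group.

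**Figure D2:**
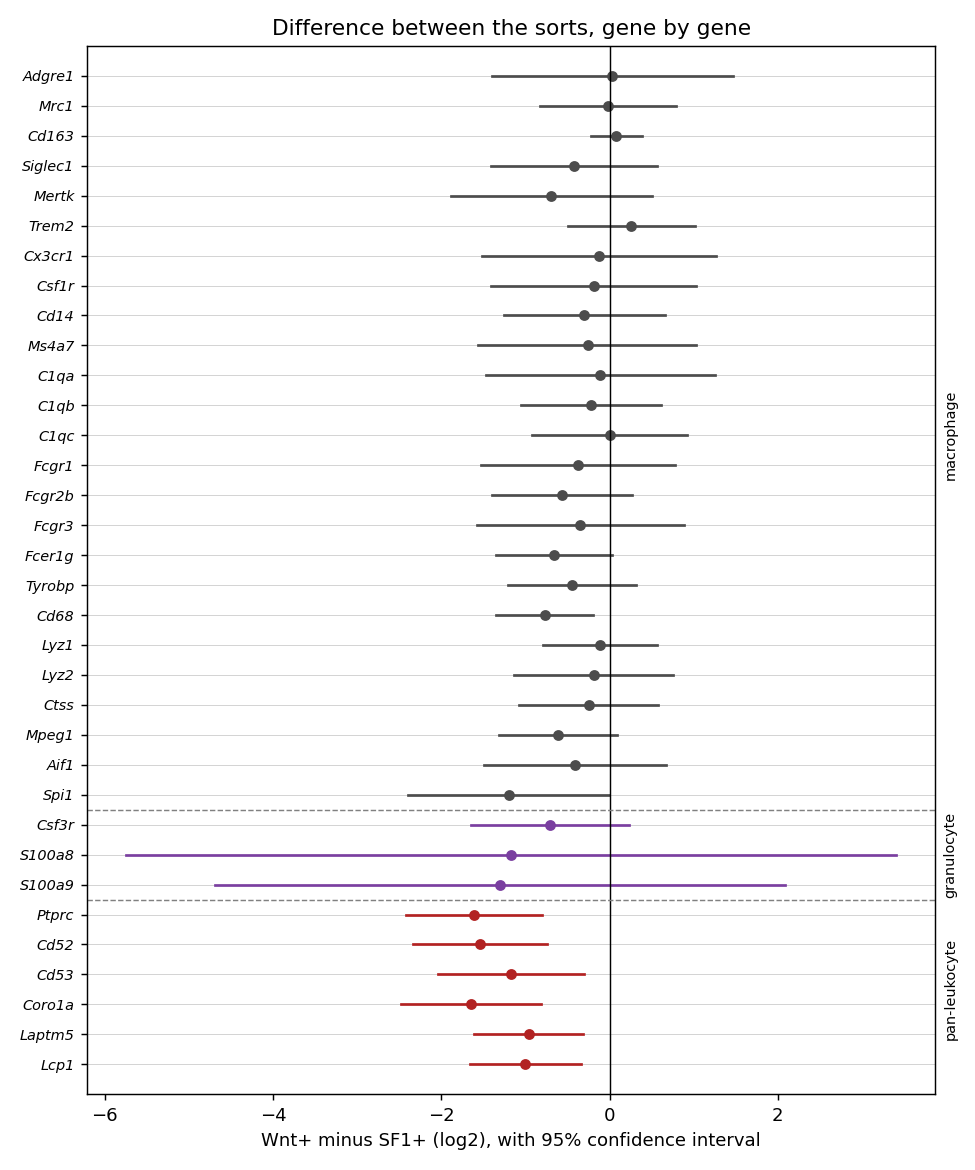
Difference of the group means, Wnt+ minus SF1+ on the log2 scale (x axis), for each of the 34 genes (rows), where points are the limma estimates and bars their 95% confidence intervals. The 6 pan-leukocyte intervals lie below 0, 23 of the 25 macrophage intervals span 0, and those of S100a8 and S100a9 are the widest.

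Genes that are more restricted to macrophages showed close group means and wide spread. Csf1r, the receptor for the macrophage growth factors CSF1 and IL-34, was at 5.47, 7.47, 5.55 and 6.72 in SF1+ and at 6.26, 5.65 and 6.43 in Wnt+. All Wnt+ arrays lay inside the SF1+ range, and the difference was -0.19 (SE 0.52, limma adjusted p = 0.912). Its 95% confidence interval, -1.41 to 1.03, reached the pan-leukocyte median of -1.36, so these arrays do not resolve a difference of that size for Csf1r. Adgre1, the F4/80 antigen that is the classical mouse macrophage marker, was at 3.65, 6.20, 4.37 and 5.25 in SF1+ and at 4.91, 4.31 and 5.47 in Wnt+. The 2 means were nearly equal (4.87 ± 1.11, SD, n = 4, and 4.90 ± 0.58, SD, n = 3). The 95% confidence interval of the Adgre1 difference, -1.40 to 1.47, also reached -1.36. So did the intervals of Cx3cr1, Ms4a7, Siglec1, Mertk, C1qa, Fcgr1, Fcgr2b, Fcgr3, Aif1 and Spi1. For these genes, too, a difference of that size is not excluded, while the intervals of the remaining macrophage genes did not reach it.

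Mrc1, the mannose receptor of tissue-resident macrophages and some endothelium, differed by -0.02 (SE 0.34, 95% confidence interval -0.83 to 0.79). Cx3cr1, the fractalkine receptor, ranged from 4.85 to 6.80 in SF1+ and from 5.23 to 6.90 in Wnt+, and differed by -0.12 (SE 0.59). The 4-span membrane protein gene Ms4a7 differed by -0.26 (SE 0.55) and Cd14, the co-receptor for bacterial lipopolysaccharide, by -0.30 (SE 0.40). None of the 10 receptor genes had an unadjusted limma p under 0.05, and their differences ran from -0.69 for Mertk to 0.26 for Trem2.

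Mertk, a receptor tyrosine kinase for the uptake of apoptotic cells, had a difference that rested on a single array. It was at 5.65 to 6.41 in SF1+, at 6.14 and 5.86 in Wnt+ replicates 1 and 3, and at 4.03 in Wnt+ replicate 2. Without that array the difference was -0.03. Trem2, a lipid-sensing receptor that signals through Tyrobp, was at 3.30 to 4.02 in SF1+ and 3.27 to 4.40 in Wnt+. The sialic acid-binding receptor gene Siglec1 differed by -0.42 (SE 0.42). Cd163, the haemoglobin-haptoglobin scavenger receptor, was at 2.19 to 2.68, below the median of all genes in each of the 7 arrays.

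The C1q genes encode the 3 chains of the recognition molecule of the classical complement pathway, which macrophages make in tissues. C1qc was at 7.96, 9.40, 8.02 and 8.89 in SF1+ and at 8.42, 8.27 and 9.00 in Wnt+, so every Wnt+ array lay inside the SF1+ range. Its group means were equal to 2 decimals (8.57 in each, 95% confidence interval of the difference -0.92 to 0.92). C1qa was at 5.59, 7.95, 6.14 and 7.40 in SF1+ and at 6.47, 6.38 and 7.13 in Wnt+, with a difference of -0.11 (SE 0.58). C1qb differed by -0.22 (SE 0.35). The 3 chains shared their highest array (SF1+ replicate 2) and had the same lowest array within SF1+ (replicate 1).

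Fc receptors bind the constant part of antibodies. Fcgr1 and Fcgr3 signal through the chain encoded by Fcer1g, Fcgr2b inhibits through a motif of its own, and Tyrobp is the adaptor of Trem2 and of natural killer receptors. All 5 differences were below 0, from -0.66 to -0.35, and 0 had an unadjusted limma p under 0.05. Fcer1g, the shared gamma chain, was at 8.54, 9.72, 9.39 and 9.32 in SF1+ and at 8.86, 8.20 and 8.70 in Wnt+. The Wnt+ arrays overlapped SF1+ replicate 1 alone, and the difference was -0.66 (SE 0.29, limma adjusted p = 0.348). Tyrobp, the DAP12 adaptor, differed by -0.45 (SE 0.32) and the inhibitory receptor gene Fcgr2b by -0.56 (SE 0.35). The high-affinity receptor gene Fcgr1 (-0.37, SE 0.49) and the activating receptor gene Fcgr3 (-0.35, SE 0.52) had differences smaller than their standard errors. Fcgr2b and Fcgr3 are related in sequence, and hybridisation of 1 transcript to the probes of the other was not tested.

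Lysosomal and phagocytic effectors differed by -0.77 to -0.11. Cd68, a heavily glycosylated lysosomal membrane protein, was the exception among macrophage genes in that its arrays did not overlap. It was at 7.51, 8.56, 7.85 and 8.07 in SF1+ and at 7.35, 6.99 and 7.33 in Wnt+, a difference of -0.77 (SE 0.24, limma adjusted p = 0.206). Mpeg1, the pore-forming protein perforin-2, differed by -0.61 (SE 0.30, limma adjusted p = 0.39), and Aif1, the calcium-binding protein IBA1, by -0.41 (SE 0.46). The cysteine protease gene Ctss, which trims the invariant chain of MHC class II, differed by -0.24 (SE 0.35).

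Lyz2, the lysozyme gene that myeloid cells use, was at 8.31, 10.07, 9.25 and 9.60 in SF1+ and at 9.04, 8.84 and 9.48 in Wnt+. Its difference was -0.19 (SE 0.40, limma adjusted p = 0.881), and the Wnt+ arrays all lay inside the SF1+ range. Lyz1, the intestinal Paneth cell lysozyme, is a close paralog, and its values (4.05 to 5.18 in SF1+, 4.22 to 4.57 in Wnt+) may include signal from Lyz2 transcripts, which was not tested.

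Spi1 differed more than any other macrophage gene. The PU.1 gene was at 3.45, 5.71, 5.04 and 5.22 in SF1+ and at 3.75, 3.38 and 3.83 in Wnt+. The 3 Wnt+ arrays lay together below SF1+ replicates 2, 3 and 4, while SF1+ replicate 1 lay among them. The difference was -1.20 (SE 0.50, limma adjusted p = 0.317), a 2.30-fold lower level. With arrays left out in turn it ran from -1.67 without SF1+ replicate 1 to -0.92 without SF1+ replicate 2. PU.1 is also made by B cells and dendritic cells.

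S100a8 and S100a9 varied more between arrays than any other of the 34 genes, and in both groups. S100a8 was at 2.52, 9.43, 5.30 and 8.07 in SF1+ and at 8.36, 2.75 and 4.39 in Wnt+. S100a9 was at 4.44, 9.34, 6.62 and 8.30 in SF1+ and at 8.25, 3.64 and 5.72 in Wnt+. For each gene SF1+ replicates 2 and 4 and Wnt+ replicate 1 were the 3 highest arrays, and SF1+ replicate 1 and Wnt+ replicate 2 were the 2 lowest. The range over the 7 arrays was 6.91 for S100a8 and 5.71 for S100a9, while no other member's range exceeded 2.59, that of Coro1a.

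The group differences of S100a8 (-1.17, SE 1.94, limma adjusted p = 0.838) and S100a9 (-1.30, SE 1.43, limma adjusted p = 0.738) were smaller than their standard errors. Without Wnt+ replicate 1 they were -2.77 and -2.50, and without Wnt+ replicate 2 they were 0.04 and -0.19. Csf3r, the receptor for granulocyte colony-stimulating factor, was at 3.06 to 4.71 in SF1+ and at 2.71 to 3.27 in Wnt+, and differed by -0.71 (SE 0.40, limma adjusted p = 0.459).

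The neutrophil granule genes Ngp, Camp and Lcn2, those with the highest mean values of a wider granulocyte and mast cell list, were highest in SF1+ replicate 2 and Wnt+ replicate 1. Ngp, an antimicrobial granule protein of immature neutrophils, was at 6.63 in SF1+ replicate 2, at 5.91 in Wnt+ replicate 1 and at 4.66 in SF1+ replicate 4, and at 2.38 to 2.69 in the other arrays. Camp, the cathelicidin gene, was highest in SF1+ replicate 2 (5.63) and Wnt+ replicate 1 (4.32) and at 2.69 to 3.29 in the rest. Lcn2, an iron-scavenging granule protein, was also highest in these arrays (5.96 and 4.79). Not all genes of that list shared this. Of its 21 measured genes, with Ngp, Camp and Lcn2 included, 16 were highest in SF1+ replicate 2 among SF1+ arrays. Among Wnt+ arrays, 8 of the 21 were highest in Wnt+ replicate 1. Of the 21, 0 passed over all genes with limma, 3 were lower and 0 higher at an unadjusted p under 0.05, and the median difference was -0.27.

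**Figure D3:**
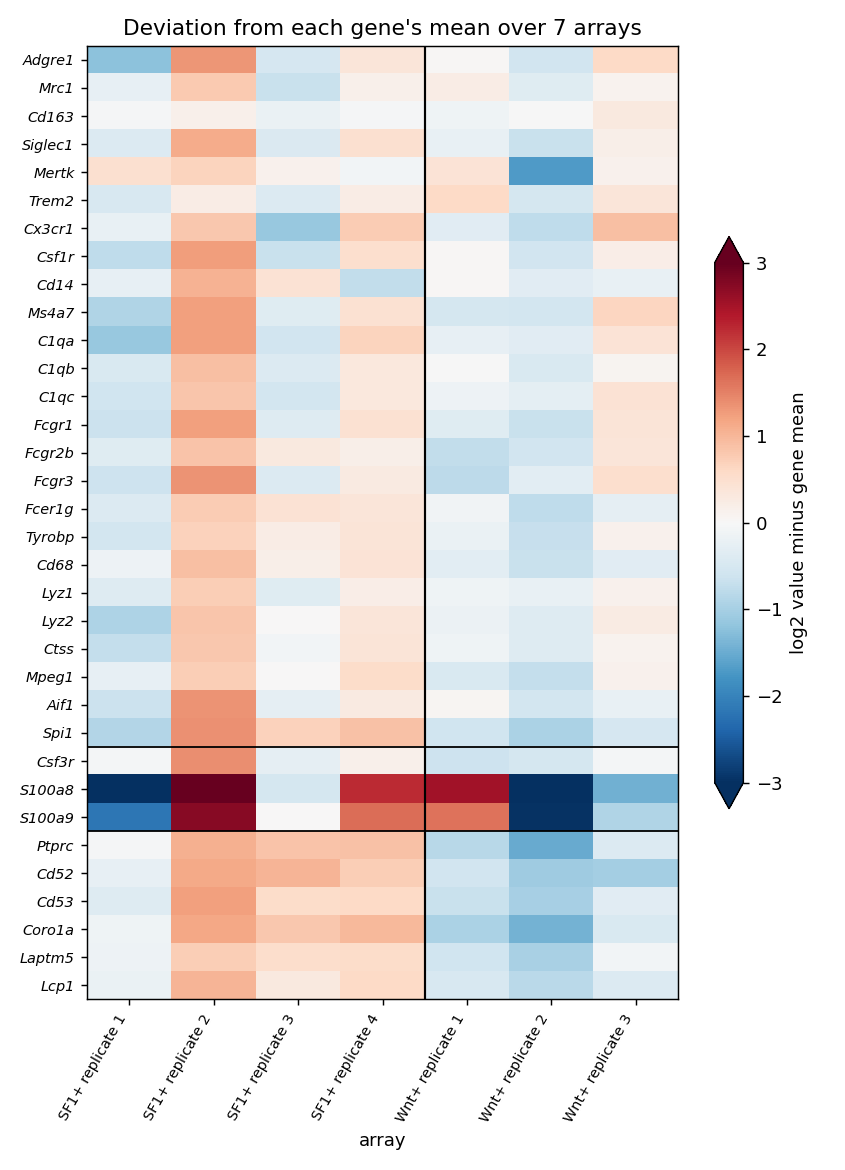
Log2 value of each of the 34 genes (rows) in each array (columns) minus the gene's mean over the 7 arrays, with colours capped at 3 in either direction. SF1+ replicate 2 is above the mean in all rows, Wnt+ replicate 2 is mostly below it, and the 6 pan-leukocyte rows at the bottom separate SF1+ from Wnt+ more than the macrophage rows at the top.

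Most of the 34 genes shared their highest and lowest arrays within each group, though they were listed with earlier results of these arrays known. SF1+ replicate 2 was the highest SF1+ array for 33 of the 34 genes, the exception being Trem2, and it is the highest for 21.7% of all genes. SF1+ replicate 1 was the lowest for 27 of the 34, against 29% of all genes. Wnt+ replicate 2 was the lowest Wnt+ array for 30 of the 34 genes, against 33.7% of all genes. Erythroid markers, which are not leukocyte genes, shared part of this order. SF1+ replicate 2 was the highest SF1+ array for 6 of 6 and Wnt+ replicate 2 the lowest Wnt+ array for 4 of 6. SF1+ replicate 1 was the lowest SF1+ array for 3 of 6. The highest Wnt+ array was replicate 1 for 5 of 6 erythroid markers, but replicate 3 for 24 of the 34 genes. The erythroid list means were 4.83, 5.70, 5.11 and 5.16 in SF1+ and 5.80, 4.33 and 5.31 in Wnt+. The part of blood cells in the order was not tested. The mean of the 25 macrophage genes was 5.72, 7.16, 6.03 and 6.55 in SF1+ replicates 1 to 4 and 6.06, 5.67 and 6.42 in Wnt+ replicates 1 to 3, and the ranges overlapped. These arrays share their amplification and normalisation, and the number of leukocytes in a sort was not measured.

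The mean of the 6 pan-leukocyte genes was 7.21, 8.46, 8.08 and 8.12 in SF1+ and 6.72, 6.27 and 6.95 in Wnt+, with no overlap. Set against the macrophage mean of the same array, it was higher by 1.30 to 2.05 in the SF1+ arrays (mean 1.60 ± 0.32, SD, n = 4) and by 0.52 to 0.66 in the Wnt+ arrays (mean 0.60 ± 0.07, SD, n = 3). The gap between the gene classes was therefore smaller in each Wnt+ array than in any SF1+ array. No p is given for such means, because the genes were listed with earlier results of these arrays known.

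**Figure D4:**
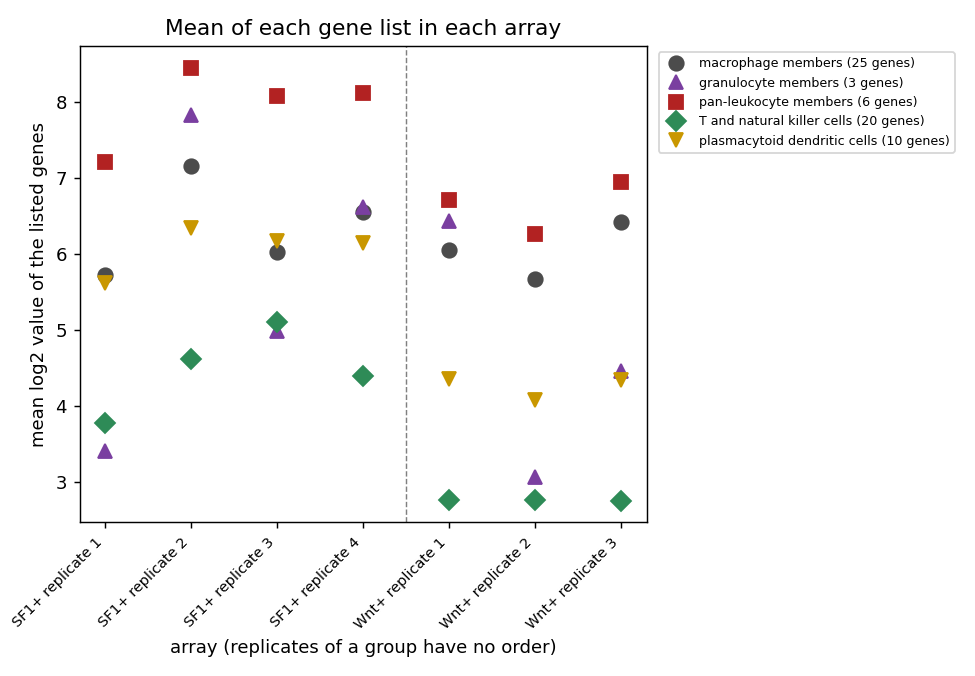
Mean log2 value of 5 gene lists (y axis) in each of the 7 arrays (x axis), where each point is the mean of the listed genes in 1 array. The macrophage means of the groups overlap, the pan-leukocyte, T and natural killer, and plasmacytoid dendritic means are lower in all 3 Wnt+ arrays, and the granulocyte mean ranges from 3.06 to 7.83.

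Wider lists of pan-leukocyte and of tissue macrophage genes outside the 34, read in the same arrays, also had medians apart. Their differences ran from -2.18 to -0.47 and from -1.91 to 0.57, so single genes of the 2 lists overlapped. Of 23 measured further pan-leukocyte genes, all had a difference below 0, 21 had an unadjusted limma p under 0.05 and 0 passed over all genes. Their median was -1.32. Arhgdib differed by -1.57 (SE 0.42), Fyb, an adaptor of T cells and myeloid cells, by -0.96 (SE 0.49), and Plek, the kinase substrate pleckstrin, by -0.77 (SE 0.28). Of 25 further genes of tissue macrophages, 22 were below 0, 5 had an unadjusted limma p under 0.05 and 0 passed over all genes. Their median was -0.24, and the 3 with the highest mean values, the apolipoprotein gene Apoe (0.57, SE 0.39), the cathepsin gene Ctsb (-0.05, SE 0.24) and the NADPH oxidase gene Cybb (-0.69, SE 0.40), did not share a direction. Apoe is also made by steroidogenic cells.

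A list of 17 signalling genes held kinases and adaptors downstream of Fc and antigen receptors (such as Syk and Lyn) and surface receptors that signal through such kinases and phosphatases (such as Fcgr4, Clec7a and Sirpa). All 17 were below 0, with 7 at an unadjusted limma p under 0.05, 0 past the threshold over all genes and a median of -0.81. Lyn, a Src-family kinase, differed by -0.90 (SE 0.34) and Sirpa, the inhibitory receptor for CD47, by -0.81 (SE 0.37). Of 11 colony-stimulating factor ligands and receptors, 1 passed over all genes. Csf2rb2, the mouse interleukin-3 receptor beta chain, fell by 0.83 (SE 0.10) with a limma adjusted p of 0.0455. Its values were 3.75, 3.97, 3.71 and 3.63 in SF1+ and 2.95, 2.83 and 3.02 in Wnt+, the latter below the array medians. The ligand gene Csf1, which endothelium and stroma make, differed by -1.13 (SE 0.43, limma adjusted p = 0.275).

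Of 11 further myeloid transcription factors, 0 passed over all genes, 4 were lower and 0 higher at an unadjusted limma p under 0.05, and the median was -0.36. Cebpb differed by -0.31 (SE 0.17) and Klf4 by -0.65 (SE 0.27). Among 8 monocyte genes 0 passed, 5 were lower at an unadjusted limma p under 0.05 and the median was -1.08. Those with the highest mean values were Ly6c1, Ly6c2 and Fn1. Ly6c1 (means 9.88 and 8.88, SE of the difference 0.40) and Ly6c2 (-1.02, SE 0.40) mark monocytes, lymphocytes and endothelium, and Fn1, the fibronectin gene, differed by 1.08 (SE 0.67). The complement genes other than C1q had 0 of 13 past the threshold, with 1 lower and 1 higher at an unadjusted limma p under 0.05, and a median of 0.25.

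Markers of other cells differed between the same groups. Pan-leukocyte genes are read in T, natural killer and plasmacytoid dendritic cells, whose markers were lower in Wnt+: all 20 of the first list and all 10 of the second were below 0, with medians of -1.43 and -1.70. Of these, 4 and 5 passed over all genes with limma. The mean of the T and natural killer markers was 3.77 to 5.11 in SF1+ and 2.75 to 2.76 in Wnt+, below the array medians in the latter, and that of the dendritic markers 5.62 to 6.35 and 4.08 to 4.35. Among the defining markers, Nkg7 was at 2.90 ± 0.05 (SD, n = 3) and Siglech at 3.31 ± 0.17 (SD, n = 3) in Wnt+. Their part in the pan-leukocyte and Spi1 differences was not tested. B cell markers averaged below the array medians in both groups, with list means of 2.53 to 2.71 in SF1+ and 2.38 to 2.56 in Wnt+ and a median difference of -0.12, and 0 of 10 passed.

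Endothelial markers, which bear on Mrc1, Fcgr2b and Csf1, were below 0 for 15 of 15 genes (median -1.57, 0 past the threshold over all genes and 13 at an unadjusted limma p under 0.05), with list means of 7.51 to 8.02 in SF1+ and 5.24 to 7.30 in Wnt+, lowest in Wnt+ replicate 2. Steroidogenic markers were above 0 for 12 of 12 genes (median 1.17, 1 past the threshold), with list means of 7.25 to 8.01 in SF1+ and 8.46 to 9.05 in Wnt+. Chromaffin markers were above 0 for 10 of 10 genes (median 1.30), capsule and fibroblast markers for 8 of 10 (median 0.54) and erythroid markers for 4 of 6 (median 0.10). By limma 0 of these passed over all genes, and at an unadjusted p under 0.05 there were 5 chromaffin genes and 0 of the others. Nr5a1, named because its fragment drives the SF1 gate, was itself at 5.75 ± 0.47 (SD, n = 4) in SF1+ and at 7.30 ± 0.38 (SD, n = 3) in Wnt+. Its mean was thus higher in the group that was not gated on its reporter. The labels call these sorts adrenocortical cells, and leukocyte transcripts such as Ptprc and Laptm5 lay above the array medians in all 7 of them.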

How the data were processed

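For each transcript cluster the authors deposited a log2 value made by RMA from perfect-match probes, per the file headers, with oligo named in the submitters' processing notes. Versions and genome build: not given in the sources used here. Quantile normalisation within RMA gives all arrays 1 distribution, and RMA values compress the differences of dim genes. The authors' deposited p-value of a group t-test and, for another experiment, a paired p-value and a fold (ratio) were also read. 7 columns of a drawing sheet were not used.

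Of 28944 clusters, 5132 had no symbol and were left out. Entrez identifiers of 23508 matched RefSeq genes (GRCm38.p6), used for current symbols. The cluster with the highest mean over 7 arrays represented each gene, which left 20719 genes; each of the 34 genes had 1 cluster. Group differences come from limma 3.58.1 under R 4.3.3 (lmFit, eBayes, prior degrees of freedom 1.98), two-sided, with 95% confidence intervals. P-values set each group difference against the spread between sorts, moderated over all genes, and precision is limited by having 7 arrays. Pearson's r over all genes was 0.962 to 0.983 within groups and 0.926 to 0.969 across.

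The members and lists were chosen with earlier results of these data known. All members are named. Of 8 further leukocyte lists and 8 lists of other cell types, genes past the threshold or among the 3 with the highest means could be named. Nr5a1 was added after its values were seen. The fit was tested on 20 simulated data sets. Plots used matplotlib 3.10.9. Protein sequences were not used here. A gene that the naming rule selected is not reported here.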

Additional observations from a re-analysis of the deposited data

How the results depend on the processing

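The 16 alternatives were a replicate block, each array left out, a filter on dim genes, 2 further normalisations, array weights, trended and robust moderation, averaging the clusters of each gene, the series matrix values and the authors' p-values after adjustment. Of these, 11 can move a difference, and the block gives the same differences as leaving out SF1+ replicate 4. All 6 pan-leukocyte differences stayed below 0 in those 11. The count of all genes past the threshold was 53, and it was 0 with the replicate block, 0 with the authors' adjusted p-values, 27 after median-centring, 33 with array weights, 155 with trended and robust moderation, 212 among genes with a mean of at least 4, and 1 to 312 with arrays left out in turn (312 without Wnt+ replicate 1, 1 without SF1+ replicate 2 or 3). Of the 34 genes, 3 passed in place of 0 among genes with a mean of at least 4, which removed 5 of them and left fewer tests, and 0 to 1 passed with arrays left out (1 without SF1+ replicate 1). The replicate numbers are not stated to pair the sorts. Same-numbered arrays deviated from their group means with correlations of -0.217, 0.034 and -0.214. With so few arrays per group these values cannot decide whether sorts were paired. The block lowered the count of pan-leukocyte genes at an unadjusted limma p under 0.05 from 6 to 4.

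The sign changed under some alternative for 13 macrophage genes and for S100a8. With the replicate block the differences were 0.10 for C1qa, 0.11 for C1qc, 0.12 for Cx3cr1 and 0.03 for Mrc1. A second quantile normalisation gave 0.06 for C1qc and 0.01 for Mrc1, median-centring gave 0.01 for C1qc, and array weights gave -0.14 for Adgre1. With arrays left out in turn the differences ran from -0.37 to 0.48 for Adgre1, -0.25 to 0.24 for Mrc1, -0.60 to 0.23 for Cx3cr1, -0.46 to 0.20 for Csf1r, -0.50 to 0.28 for C1qa, -0.40 to 0.05 for C1qb and -0.22 to 0.28 for C1qc. They ran from -0.58 to 0.01 for Cd14, -0.03 to 0.17 for Cd163, -0.70 to 0.05 for Fcgr3, -0.25 to 0.12 for Lyz1, -0.52 to 0.07 for Lyz2, -0.66 to 0.11 for Ms4a7 and -2.77 to 0.04 for S100a8. The cause was not tested.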

Other observations

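The authors' deposited table also gives, for each gene, a fold of Bio over vehicle in mouse adrenocortical tumor cell lines, from 4 pairs whose sample values were not analysed here. In the authors' deposited table the median fold of the 34 genes was 0.98, beside 0.991 for all genes, and 6 of the 34 (17.6%) had a paired p under 0.05, beside 35.5% of all genes. The lowest of these folds in the authors' deposited table was that of Mpeg1 (0.304) and the highest that of Cd53 (1.96).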
